A study of Homo sapiens with 4 samples.

Results

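The genes described here are 39 genes of protein folding and quality control in the endoplasmic reticulum (ER) and of the unfolded protein response. They were listed by gene symbol as members of the pathway, with earlier results of these data known. A probe was found by its RefSeq accession for 38 of them, among 22439 genes with a probe on the array, and *ERO1A* was not analysed here. The 38 genes were followed in A549, an established human lung adenocarcinoma cell line. Gene expression had been measured on 4 Agilent arrays of 1 color, of which 1 followed transfection of *miR-486-5p* (5p) and 1 that of *miR-486-3p* (3p). The other 2 arrays were of mock cells, which received the reagent, Lipofectamine RNAiMAX, without a miRNA. Both miRNAs are mature strands of the same precursor, and a comparison of each strand with mock asks which transcripts differ once that strand is raised in the cells. No array carried a control miRNA, so that an effect of the strand's sequence and an effect of transfecting any small RNA cannot be told apart. The labels give neither the dose of the miRNAs nor the time of RNA extraction.

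The ER folds secreted and membrane proteins with the help of chaperones, disulfide enzymes and a lectin cycle for glycoproteins. When unfolded proteins accumulate, the sensors IRE1 (*ERN1*), ATF6 and PERK (*EIF2AK3*) start the unfolded protein response. IRE1 splices the mRNA of *XBP1*, ATF6 is cut to release a transcription factor, and PERK lowers translation while favoring that of ATF4. The factors XBP1 and ATF6 then raise chaperones and the machinery of ER-associated degradation (ERAD), by which misfolded proteins are moved to the cytosol and degraded. The arrays measure mRNA levels, so that splicing of *XBP1*, cutting of ATF6 and protein amounts were not measured.

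ATF6 and XBP1 are known to act on short promoter elements, and these are shown because genes that share them went different ways on the arrays. The ER stress response element (ERSE) was searched as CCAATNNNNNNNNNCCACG, and ERSE-II as ATTGGNCCACG, in which ATTGG is CCAAT read on the other strand. Both strands were searched in RefSeq promoter windows of the GRCh38.p14 build, from 250 bases before to 50 bases after each gene's start. A window was present for 34 of the genes, and none was matched for *FKBP14*, *PDIA3*, *DERL1*, *DERL3* or *SEC24D*. ERSE was found for 8 of the 34 genes (23.5%) and in 27 of all 35116 windows (0.0769%). ERSE-II was found for 3 of the 34 genes (8.82%) and in 19 of all windows (0.0541%). Among 104 other genes of the secretory pathway and stress response with a window, 0 held either element there. The 34 and the 104 count genes, while the total counts windows. The elements are known from genes of this kind, so that these shares describe the gene set and are not independent of its choice. A match is a run of letters in the window, and binding of a factor was not measured. In the sequences below, each on the strand that reads as the element does, capitals mark the fixed letters of ERSE (first 4) or ERSE-II (last 2).
HSPA5: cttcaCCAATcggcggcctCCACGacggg
ERO1B: ggcggCCAATgaggcgggaCCACGcgggc
CALR: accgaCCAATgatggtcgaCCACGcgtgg
XBP1: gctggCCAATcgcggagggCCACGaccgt
HERPUD1: cggacgccgATTGGgCCACGttgggagag
SDF2L1: agggttttgATTGGtCCACGcttccgagg
Without the lower-case bases at their ends, the elements of *HSPA5*, *CALR* and *XBP1* lie at chr9:125241391-125241409, chr19:12938384-12938402 and chr22:28800603-28800621, all on the minus strand. That of *ERO1B* lies at chr1:236282183-236282201 and that of *HERPUD1* at chr16:56932025-56932035, both on the plus strand. That of *SDF2L1* lies at chr22:21642114-21642124 on the minus strand. All lie upstream of the gene's start. The other windows with ERSE belonged to *HSP90B1*, *CRELD2*, *PDIA6* and *CANX*, and that with ERSE-II to *HYOU1*. The windows of *HSP90B1* and *HYOU1* each held the element at 2 places.

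Levels are given as the log2 of the background-corrected signal minus the 75th percentile of the array, so that 0 is the level of the 75th percentile. Probes bind with different strength, and levels are compared between arrays but not between genes. A difference is the level on a transfected array minus the mean of both mock arrays, in log2 units. An array compares shares of the RNA put on it, so that fewer copies per cell and fewer cells with the transcript cannot be told apart. Several probes were present for 9 of the genes, and each of the others, *HSPA5* among them, rests on 1 probe. For 37 of the 38 genes, every probe was well above background on all 4 arrays. The exception was *DERL3*, whose second probe was not well above background on either transfected array. The mock arrays lay close together, with a median gap of 0.051 over the 38 genes and a largest gap of 0.37 (*EDEM1*). The limma test with Benjamini-Hochberg adjustment was fitted to 33499 probes. Its only residual degree of freedom lies between the mock arrays, and each transfected array was assumed to vary as they do.

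The arrays held 60901 spots of 58201 probes. Between 52.7% and 54.2% of the probes were well above background, and 0 spots were saturated. The 75th percentile of the signal was 105 for 5p, 93.1 for 3p and 114 for each mock array. Over 28246 probes above background on all arrays, the SD of the difference was 0.196 between the mock arrays, 0.522 for 5p against mock and 0.975 for 3p against mock. Of 5 epithelial marker genes, *KRT8*, *KRT18* and *KRT19* were well above background on all 4 arrays. *EPCAM* was so on 2 arrays, and the probe of *CDH1*, the epithelial cadherin, was used for neither strand. Of 11 leukocyte, endothelial and fibroblast markers, 7 also had probes well above background on all arrays.

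**Figure D1:**
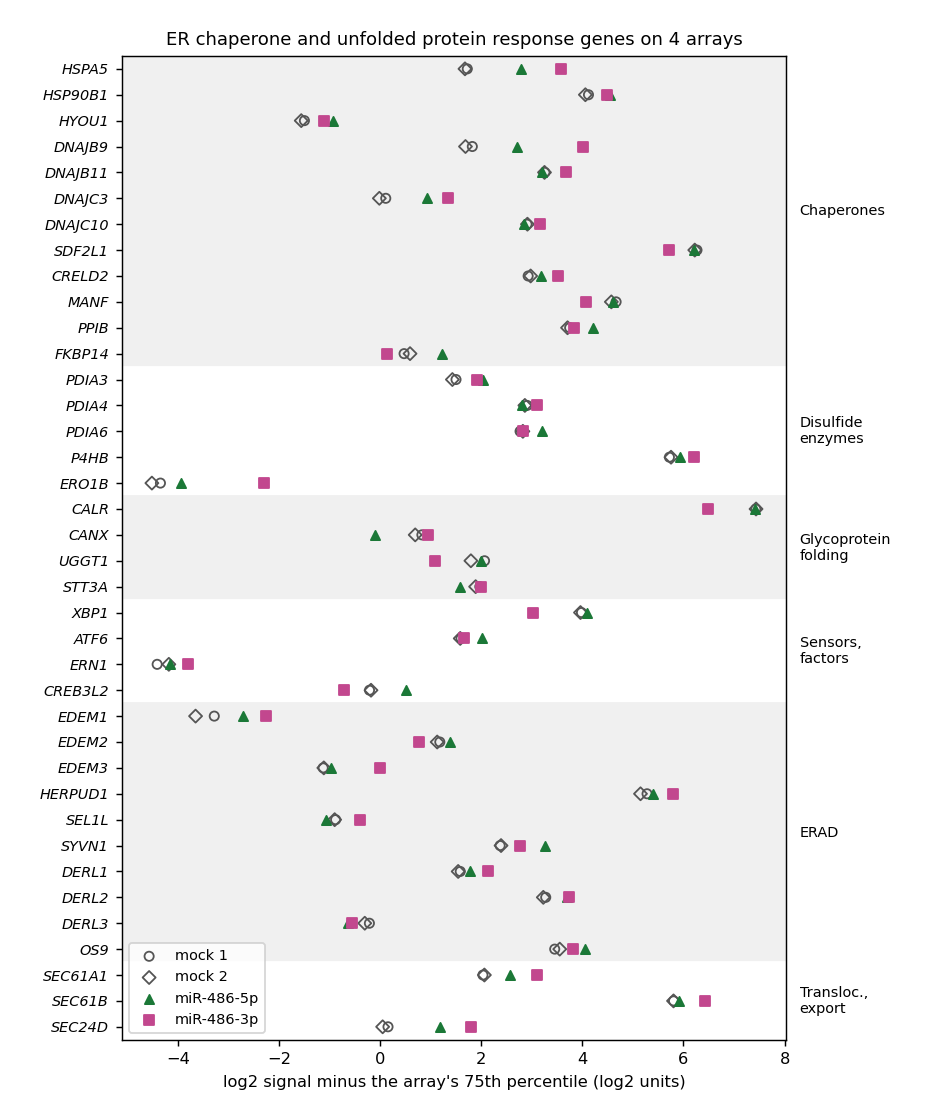
Level of each of 38 genes on the 4 arrays, as log2 signal minus the array's 75th percentile, grouped by role. Open circles and diamonds are mock 1 and mock 2, green triangles 5p and magenta squares 3p. The mock symbols nearly coincide for most genes, while *HSPA5*, *DNAJB9*, *DNAJC3* and *SEC24D* lie to the right of mock on both transfected arrays and *CALR* and *XBP1* lie to the left on the 3p array alone.

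After 5p, few of these genes passed the test, and those that did were higher. *HSPA5*, *SEC24D* and *SYVN1* rose, which is 3 of 38 genes (7.89%), beside 3.55% of all genes called higher. Called lower were 0 of the 38, beside 6.63% of all genes. At an unadjusted p under 0.05, limma called 4 of the 38 lower and 19 higher, beside 24.3% and 22.5% of all genes. The methods' t-test, unadjusted, called 1 lower and 8 higher, beside 2297 and 2009 of 16662 genes. By size alone, 13 genes lay above 0.5 (34.2%, beside 13.8% of all genes) and 1 lay below −0.5 (2.63%, beside 15.9%). The median over the 38 genes was 0.22, beside 0.030 over all genes. The smallest adjusted p of any gene in this comparison was 0.0475, just under the threshold. With the authors' own log2 values, limma called 0 genes of any kind.

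After 3p, more of them passed in both directions. Called higher were 19 of the 38, beside 30.7% of all genes, and called lower 7 (18.4%, beside 30.4%). By size, 12 lay above 0.5 (31.6%, beside 30.4% of all genes) and 6 below −0.5 (15.8%, beside 27.2%). The median was 0.40, beside 0.058 over all genes. The balance of rises and falls depends on the scaling. Subtracting each array's median in place of its 75th percentile lowered the median of all genes by 0.37 after 3p, and then 8 of the 38 were called higher and 9 lower, beside 19.2% and 44.2% of all genes. On that scale *HSP90B1*, *HYOU1*, *DNAJB11*, *CRELD2*, *PDIA3*, *P4HB*, *HERPUD1*, *SEL1L*, *DERL1*, *DERL2* and *SEC61B* were no longer called higher, with differences of 0.024 to 0.26, and *FKBP14* and *EDEM2* were called lower. Of the called genes among the 38, 47.1% were higher on that scale, 73.1% on the scale used here, 85.2% after quantile normalization and 87.5% with the authors' log2 values. The distance between the median of the 38 and that of all genes was 0.35 with the 75th percentile, which a change to the median cannot alter, 0.44 after quantile normalization and 0.14 after another background correction (normexp). Under all 5 of these settings, *HSPA5*, *DNAJB9*, *DNAJC3*, *ERO1B*, *EDEM3*, *SEC61A1* and *SEC24D* were called higher and *CALR*, *XBP1* and *CREB3L2* lower.

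The strands were also compared with each other, since both differences from mock share the same mock arrays. Between 3p and 5p, 10 of the 38 were called higher after 3p (26.3%, beside 25.7% of all genes) and 8 lower (21.1%, beside 26.4%). These shares lie near those of all genes.

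**Figure D2:**
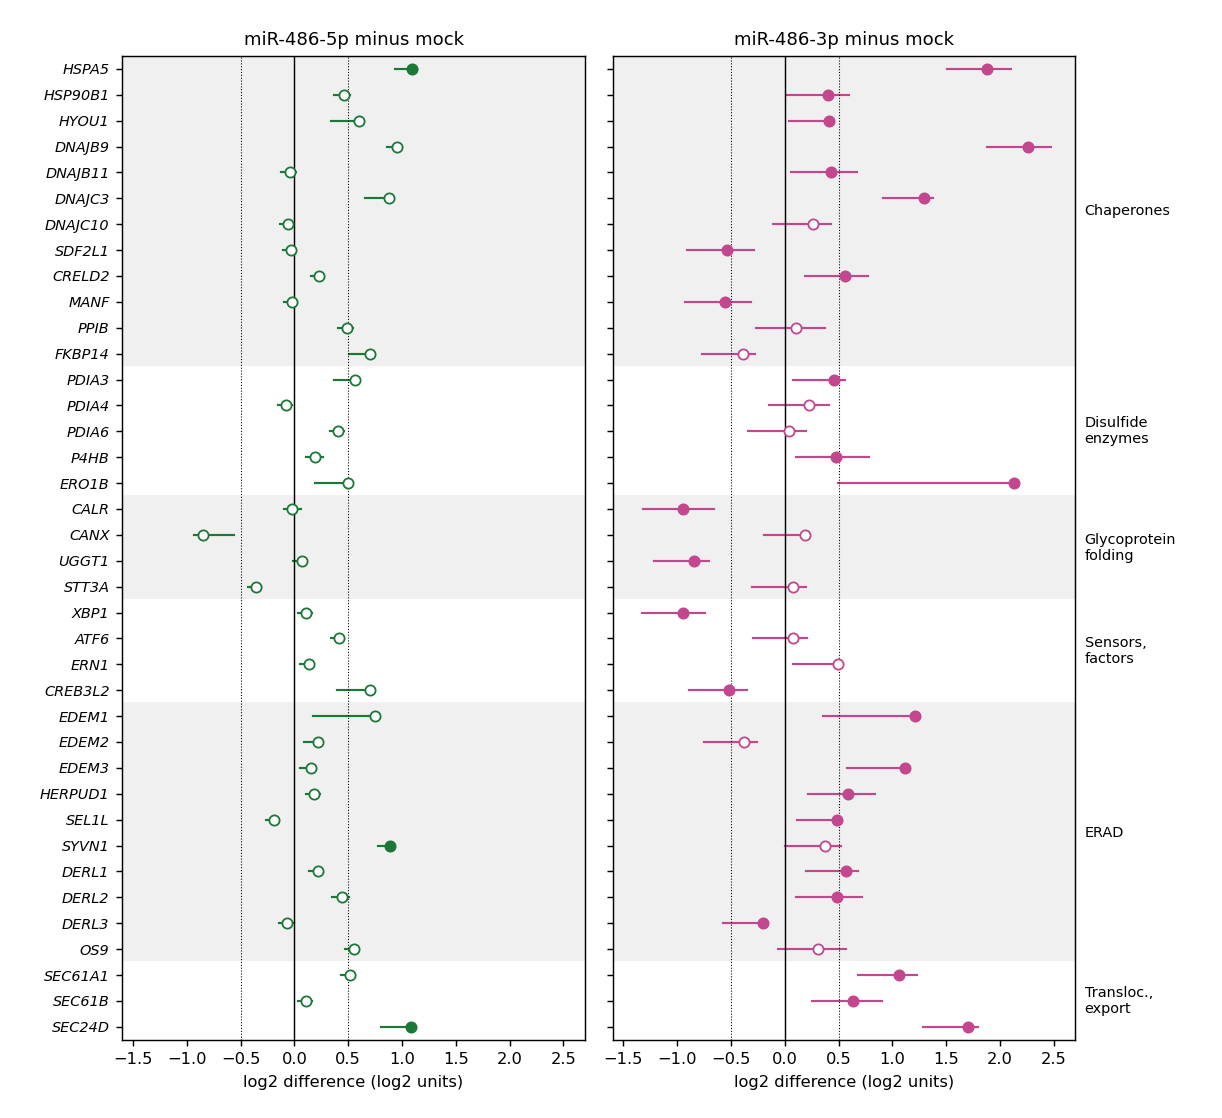
Log2 difference of each gene from the mean of the mock arrays, after 5p (left) and 3p (right). Filled dots passed the limma test at an adjusted p of 0.05 and open dots did not; the lines span the values under 5 settings (the 75th percentile, the median, quantile normalization, the authors' log2 values and normexp), and dotted lines mark 0.5 and −0.5. After 5p, 3 dots are filled, all to the right of 0. After 3p, 19 are filled to the right and 7 to the left, and no line of a filled dot crosses 0.

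Counts by role stand beside the shares of all genes called higher and lower, 3.55% and 6.63% after 5p and 30.7% and 30.4% after 3p. After median scaling, the shares after 3p were 19.2% and 44.2%. Of the 12 luminal chaperones and their partners, 7 rose and 2 fell after 3p (3 and 3 after median scaling). *HSPA5* alone was called after 5p, where it rose. It encodes BiP, the main chaperone of the ER lumen, which also holds the stress sensors inactive. Its level was 1.72 and 1.68 on the mock arrays, 2.79 after 5p and 3.58 after 3p. Both transfected arrays lay far outside the mock values, the 3p array highest. The rise was 2.14-fold after 5p (difference 1.09, SE 0.0905, adjusted p = 0.0475) and 3.69-fold after 3p (1.88, SE 0.0905, adjusted p = 0.00762). The gap between the strands was itself called, at 0.79 (adjusted p = 0.0242).

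The J-domain proteins, which pass unfolded proteins to BiP and start its ATP cycle, were uneven. *DNAJB9*, which recruits BiP to IRE1, was at 1.82 and 1.69 in mock, 2.71 after 5p and 4.01 after 3p. It rose 4.78-fold after 3p (2.26, SE 0.112, adjusted p = 0.00768), the largest difference of the 38. After 5p its difference was 0.95 and narrowly missed the threshold (adjusted p = 0.0520). *DNAJC3* was at 0.11 and −0.017 in mock, 0.93 after 5p and 1.34 after 3p, and rose 2.45-fold after 3p (adjusted p = 0.0110). *DNAJB11* was at 3.26 and 3.25 in mock, 3.21 after 5p and 3.68 after 3p, and rose 1.35-fold after 3p (adjusted p = 0.0406). *DNAJC10*, a J-domain protein that also reduces disulfides, differed by −0.058 and 0.26, and neither was called. The J-domain genes thus ranged from no call to the largest rise of the set.

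The other chaperones moved less. *HSP90B1*, the ER form of Hsp90, differed by 0.46 after 5p and rose by 0.40 after 3p, where 1 of its 2 probes was called (adjusted p = 0.0444). *HYOU1*, an exchange factor for BiP, was at −1.499 and −1.562 in mock, −0.93 after 5p and −1.12 after 3p. Both transfected arrays lay above mock, and the call was for 3p only (0.41, adjusted p = 0.0497), the difference of 0.60 after 5p having an adjusted p of 0.0610. The call was lost after median scaling (0.037), after quantile normalization (0.30) and with the authors' log2 values (0.29). *CRELD2* rose by 0.56 after 3p (adjusted p = 0.0278) and differed by 0.23 after 5p.

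*SDF2L1* and *MANF* went the other way after 3p. *SDF2L1*, which keeps substrates of BiP soluble together with *DNAJB11*, was at 6.27 and 6.22 in mock, 6.21 after 5p and 5.71 after 3p. Only the 3p array lay clear of mock, at 69.0% of its level (−0.54, SE 0.0902, adjusted p = 0.0294). *MANF*, a secreted partner of BiP, was at 4.67 and 4.57 in mock, 4.60 after 5p and 4.06 after 3p, and fell to 68.0% after 3p (adjusted p = 0.0330). Neither was called with the authors' log2 values or after quantile normalization, where the differences lay between −0.29 and −0.33. The prolyl isomerases *PPIB* and *FKBP14* differed by 0.48 and 0.70 after 5p and by 0.10 and −0.39 after 3p, and none of these was called. The difference of −1.09 between the strands was called for *FKBP14* (adjusted p = 0.0198).

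Of the 5 disulfide enzymes measured, 3 rose after 3p (1 after median scaling), *ERO1B* by the most, and 0 were called after 5p. It is an oxidase that supplies disulfide bonds to protein disulfide isomerases. Its level was −4.35 and −4.52 in mock, −3.93 after 5p and −2.30 after 3p, and the mock values lay just above the lowest signal well above background on those arrays (−4.73). It rose 4.38-fold after 3p (2.13, SE 0.124, adjusted p = 0.00823), and the strands differed by 1.63 (adjusted p = 0.0152). After normexp, the difference after 3p was 0.49 and was still called. The isomerases changed by less. *PDIA3* and *P4HB* rose by 0.45 and 0.47 after 3p, with 1 of 2 probes called for each. *PDIA4* and *PDIA6* were called for neither strand, with differences of −0.074 and 0.41 after 5p and 0.23 and 0.035 after 3p.

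Of the 4 genes of the glycoprotein folding cycle, 2 fell after 3p and 0 were called after 5p. *CALR*, the soluble lectin chaperone calreticulin, was at 7.43 and 7.44 in mock, 7.41 after 5p and 6.49 after 3p. It fell to 52.0% of mock after 3p (−0.94, SE 0.0873, adjusted p = 0.0121) and differed by −0.021 after 5p. *UGGT1*, which adds glucose back to misfolded glycoproteins so that they re-enter the cycle, was at 2.06 and 1.79 in mock, 2.00 after 5p and 1.08 after 3p. It fell to 55.7% after 3p (−0.84, SE 0.166, adjusted p = 0.0383), and its 5p value lay between the mock values. With the authors' log2 values the difference after 3p was −0.78 and was not called.

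*CANX*, the membrane-bound counterpart of calreticulin, had the opposite order. It was at 0.82 and 0.69 in mock, −0.095 after 5p and 0.94 after 3p. Only the 5p array lay far from mock, at 55.3% of its level, with −0.86 and −0.85 at its 2 probes. These just missed the threshold (adjusted p = 0.0526 and 0.0553). The difference of 1.04 between the strands was called at both probes (adjusted p = 0.0208 and 0.0238), as was that of −0.92 for *CALR* (adjusted p = 0.0190). *STT3A*, a catalytic subunit of the oligosaccharyltransferase, was called for neither strand (−0.35 and 0.071).

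Of the 4 sensors and transcription factors, *XBP1* and *CREB3L2* fell after 3p, and 0 were called after 5p. It was at 3.98 and 3.96 in mock, 4.08 after 5p and 3.02 after 3p. The 3p array was far below both mock arrays, at 51.8% of their mean (−0.95, SE 0.0879, adjusted p = 0.0122), while the difference of 0.11 after 5p was not called. The strands differed by −1.06 (adjusted p = 0.0166). *CREB3L2*, a membrane-bound factor of the ATF6 kind, had 2 probes for 2 RefSeq transcripts. After 3p the probe of the first was lower by 1.01 (adjusted p = 0.0143) and that of the second differed by −0.025, so that the call rested on 1 probe. After 5p they were at 0.51 and 0.91 and neither was called, and between the strands both were (−1.52 and −0.93, adjusted p = 0.0142 and 0.0312). *ATF6* and *ERN1* were called for neither strand, with differences of 0.42 and 0.14 after 5p and 0.074 and 0.49 after 3p. *ERN1* was at −4.41 and −4.18 in mock, near the lowest signal well above background on those arrays (−4.73). After normexp, *ATF6* was called higher after 5p (0.36) and *ERN1* after 3p (0.23). With the processing used here *ATF6* and *ERN1* gave no call, while *XBP1* was lower on the array on which *HSPA5* and *DNAJB9* were highest. The gene of the sensor PERK, *EIF2AK3*, rose by 1.88 after 3p and is described with the PERK arm below.

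Of the 10 ERAD genes, 6 rose and 1 fell after 3p (2 and 2 after median scaling), and 1 rose after 5p. *EDEM1* and *EDEM3* trim mannose from misfolded glycoproteins. *EDEM3* rose at each of its 3 probes, by 0.93 to 1.36 (adjusted p from 0.0110 to 0.0130), and differed by 0.16 as a gene after 5p. *EDEM1* was at −3.28 and −3.65 in mock, the widest mock gap of the set, at −2.72 after 5p and at −2.26 after 3p. It rose 2.31-fold after 3p (1.21, SE 0.212, adjusted p = 0.0315). After normexp the difference was 0.36 and was called, and with the authors' log2 values it was 0.95 and was not. *EDEM2* was called for neither strand against mock (0.22 and −0.38), although the difference between the strands was (−0.59, adjusted p = 0.0375). Of the 3 EDEM genes it was the only one below both mock arrays after 3p.

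In the membrane complex that carries proteins out of the ER, the ubiquitin ligase gene *SYVN1* and its partner *SEL1L* had different orders. *SYVN1* was at 2.37 and 2.39 in mock, 3.27 after 5p and 2.76 after 3p. It rose 1.85-fold after 5p (0.89, SE 0.0878, adjusted p = 0.0480) and differed by 0.38 after 3p (adjusted p = 0.0524), and the gap of −0.51 between the strands was called (adjusted p = 0.0450). *SEL1L* rose by 0.49 after 3p, with all 3 probes called (adjusted p from 0.0444 to 0.0459). After 5p its probes disagreed, at 0.32, −0.73 and −0.14, and none was called. *HERPUD1*, which brings the ligase complex together, rose by 0.59 after 3p (adjusted p = 0.0357), and *DERL1* and *DERL2*, parts of the channel, by 0.57 and 0.48 (adjusted p = 0.0266 and 0.0356). *DERL3* was called lower through its brighter probe, which differed by −0.48 after 3p (adjusted p = 0.0362), and its dim second probe gave no fold. That call was lost after quantile normalization, after normexp and with the authors' log2 values. *OS9*, a lectin that hands over glycoproteins, differed by 0.55 and 0.31 and was not called.

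The 3 genes of translocation and export all rose after 3p. *SEC24D*, a cargo-binding coat protein of the COPII vesicles that leave the ER, was at 0.15 and 0.048 in mock, 1.19 after 5p and 1.80 after 3p. It rose 2.12-fold after 5p (1.09, SE 0.103, adjusted p = 0.0475) and 3.24-fold after 3p (1.70, SE 0.103, adjusted p = 0.00845). The order of the arrays was that of *HSPA5*, and the strands differed by 0.61 (adjusted p = 0.0437). *SEC61A1*, the pore of the translocon through which new proteins enter the ER, was at 2.03 and 2.06 in mock, 2.56 after 5p and 3.11 after 3p. It rose 2.08-fold after 3p (adjusted p = 0.0109), and its difference of 0.52 after 5p was not called (adjusted p = 0.0663). *SEC61B*, a small subunit of the same pore, was at 5.80 in both mock arrays, 5.91 after 5p and 6.43 after 3p, and rose by 0.63 after 3p (adjusted p = 0.0213).

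The genes with an ERSE or ERSE-II in the window did not stand apart from the rest. The 11 had a median difference of 0.23 after 5p and 0.40 after 3p, and the 22 with a window but neither element had 0.20 and 0.40. After 3p, 6 of the 11 were called higher and 3 lower, against 10 and 3 of the 22. Over all genes, 30.7% were called higher and 30.4% lower, and 19.2% and 44.2% after median scaling. On that scale, *HSP90B1*, *HYOU1*, *CRELD2* and *HERPUD1* of the 11 were no longer called higher. Neither were *DNAJB11*, *P4HB*, *SEL1L*, *DERL2* and *SEC61B* of the 22, of which *EDEM2* was called lower. *ERO1A*, the other gene with a window, was not measured. After 3p the 11 ranged from 2.13 (*ERO1B*) and 1.88 (*HSPA5*) to −0.94 (*CALR*) and −0.95 (*XBP1*), and the 22 from 2.26 (*DNAJB9*) to −0.84 (*UGGT1*). The 6 genes whose elements are printed above were picked from both ends of the range. A shorter element, UPRE (TGACGTGG), was present for 2 of the 34 genes (5.88%), *DNAJC10* and *HYOU1*. It was also present for 11 of the 104 other genes with a window, and in 0.729% of all windows. In *HYOU1* it overlaps an ERSE-II.

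**Figure D3:**
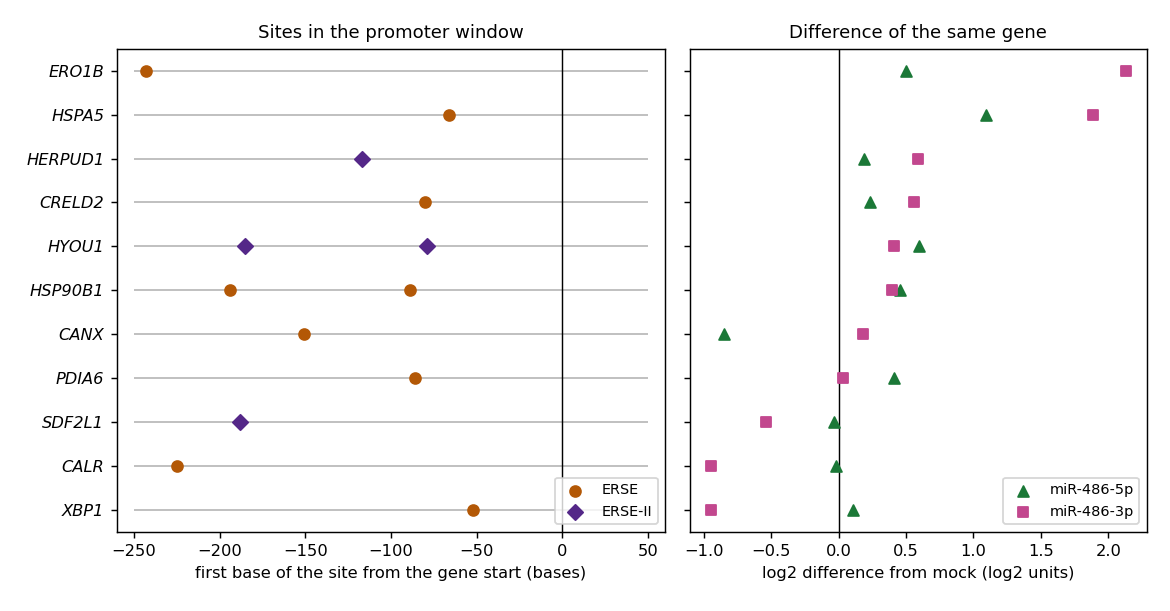
Positions of ERSE (circles) and ERSE-II (diamonds) in the promoter windows of 11 genes, as bases from the gene's start (left), and the log2 differences of the same genes from mock after 5p (triangles) and 3p (squares) (right). Genes are ordered by the difference after 3p, and an element is present at both ends of that order, from *ERO1B* at 2.13 to *XBP1* at −0.95.

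Other genes of the same pathway were taken from 7 lists, 115 genes with a probe in all. After 5p their median was 0.19, and 6 were called higher and 6 lower, beside 3.55% and 6.63% of all genes. After 3p their median was 0.27, and 46 were called higher and 23 lower, beside 30.7% and 30.4% of all genes. After median scaling the balance turned to 24 higher and 39 lower, beside 19.2% and 44.2% of all genes. The list with the lowest median after 3p was the PERK arm of the response, which includes ATF4, the stress genes that it activates and the phosphatase subunits that end the response. After 3p, 7 of its 12 genes were called lower and 3 higher, and its median was −0.52. Under the other settings the counts were between 5 and 7 lower and between 3 and 5 higher, and the median was below 0 in each.

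*CHAC1*, which degrades glutathione, was at 2.22 and 2.29 in mock, 0.94 after 5p and −1.09 after 3p. It fell after both strands, by 1.31 (adjusted p = 0.0475) and by 3.34 (adjusted p = 0.00762). *TRIB3*, *SESN2* and *ASNS* (asparagine synthetase) fell by 2.33, 2.17 and 2.06 after 3p (adjusted p = 0.00762 for each), and were not called after 5p. *CEBPB*, a transcription factor, fell by 0.96 (adjusted p = 0.0122). *ATF4* itself was at 7.98 and 7.93 in mock, 7.05 after 5p and 7.37 after 3p. It was lower than both mock arrays on either transfected array (−0.90 and −0.58, adjusted p = 0.0486 and 0.0264). The call after 5p was lost with the authors' log2 values. That after 3p was lost with these values and after quantile normalization, where the difference came down to as little as −0.31.

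In the same list, *EIF2AK3*, the gene of PERK, rose by 1.88 after 3p (adjusted p = 0.00762), and *PPP1R15A* and *PPP1R15B*, the phosphatase subunits, rose by 1.16 and 0.97 (adjusted p = 0.0148 and 0.0160). *DDIT3* (CHOP) differed by 0.57 after 5p without a call and fell by 0.47 after 3p (adjusted p = 0.0358), and the strands differed by −1.04 (adjusted p = 0.0169). After 3p, *HSPA5* and *DNAJB9* were thus high on the same array on which *CHAC1*, *TRIB3* and *ASNS* were low.

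In the lists of transport, more genes rose than fell after 3p, although for translocation this turned with the scaling. Over all genes, 30.7% were called higher and 30.4% lower after 3p, and 19.2% and 44.2% after median scaling. Of 18 genes of the COPII coat and cargo receptors, 10 were called higher and 1 lower, with a median of 0.59, which became 4 higher, 2 lower and 0.22 when arrays were scaled on their medians. *SEC31A*, a coat subunit, rose by 1.83 (adjusted p = 0.00786), and *SAR1A*, the GTPase that starts the coat, fell by 0.67 (adjusted p = 0.0135). *KDELR3*, a receptor that returns ER proteins from the Golgi, rose after both strands (0.94 and 1.29, adjusted p = 0.0475 and 0.00908). Of 18 other genes of translocation, 8 were called higher and 2 lower, with a median of 0.33, which became 4 higher, 6 lower and −0.046 on that scale. *SRP54*, a subunit of the signal recognition particle, rose by 1.89 (adjusted p = 0.00762). *TMED10* and *SPCS2*, a cargo receptor and a signal peptidase subunit, fell after 5p, by 1.61 and 1.53 (adjusted p = 0.0475 for both), and were not called after 3p.

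**Figure D4:**
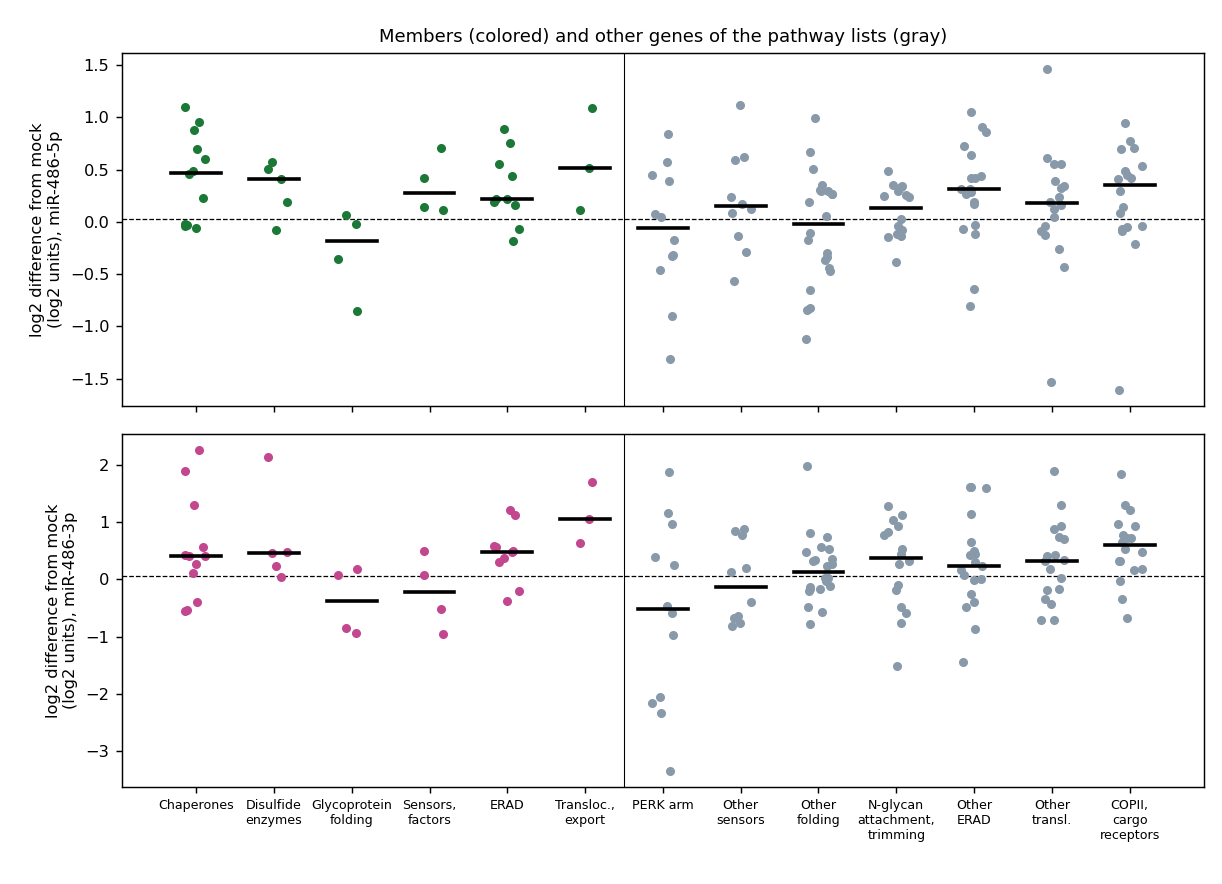
Log2 difference from mock of each gene after 5p (top) and 3p (bottom), for the 38 genes by role (colored) and for 7 lists of other genes of the pathway (gray). Each dot is a gene, black bars are list medians and the dashed line is the median of all genes. After 3p the PERK arm has the lowest median (−0.52) and reaches −3.34, and translocation and export has the highest (1.06); scaling on array medians lowers all differences after 3p together, by 0.37 at the median of all genes, and takes the medians of other folding, other ERAD and other translocation genes below 0.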

How the data were processed

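RNA of A549 cells was measured on 4 one-color Agilent arrays in 3 groups taken from the labels (1 for each miR-486 strand, 2 mock). The authors deposited scanner output of Agilent's Feature Extraction, whose background-corrected intensity per spot is on a linear scale. A table of log2 values of these arrays was deposited as well, with equal quartiles on all 4 arrays (0.15, 2.76 and 6.28) and correlations of 0.9996 or more with the scanner's values. Their normalization is not given in the sources used here. The scanner's intensity was used, and the authors' log2 values served as an alternative.

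The log2 of the intensity was taken, each array's 75th percentile (control spots excluded) was subtracted, spots marked as outliers were left out (50 to 72 per array), and spots of a probe were averaged. For a given strand, probes were kept that were well above background either in both mock samples or in the transfected one. A dim group was raised to the lowest signal called well above background on its array, unless its own was higher, which gives a bound. Differences of a gene's kept probes were averaged, and genes were counted below −0.5 or above 0.5. Probes were named through RefSeq accessions, and 31104 of 33080 probes with such an accession matched a gene. limma 3.58.1 (lmFit, eBayes, R 4.3.3) was fitted to 4 arrays in 3 groups with Benjamini-Hochberg adjustment over 33499 probes at 0.05. limma's prior came to 1.75 degrees of freedom with an SD of 0.0893. A gene was called if at least 1 probe was called and none the other way, among 16662 genes tested. The fit was tested on simulated data.

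With 1 slide and 1 scan for all arrays, no slide effect could be fitted, and the number of arrays limits the precision. The labels do not say whether the mock arrays come from separate cultures, and p-values measure only the spread between these samples, which may be technical. The 39 genes and all lists were chosen with earlier results of these data known. All 39 genes are named, together with the lowest and highest gene of each other list after each strand, and the marker genes. Beyond this rule, called genes of the PERK list are named, a choice made after their values were seen, while the 12 genes of that list were set before and none was added. Alternatives were median scaling, quantile normalization, the authors' log2 values, normexp (offset 50) on the median signal, no filter on dim probes, probes above background on all 4 arrays, the brightest probe, a limit of 1, a spread varying with intensity, a fit across genes, every probe called, the methods' t-test, and each mock array left out. Promoter windows were read from RefSeq sequences of GRCh38.p14, used for sequence alone.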

Additional observations from a re-analysis of the deposited data

How the results depend on the processing

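After each mock array was left out in turn, the counts above 0.5 and below −0.5 and the medians stayed within 1.5 times their values or within the spread between the mock arrays. With 1 mock array only, limma is left with no residual degree of freedom, and no calls could be made. No paired analysis was possible because each strand has 1 array. The t-test after Benjamini-Hochberg adjustment called 0 of the 38 genes higher after 5p, and 0 higher and 0 lower after 3p. It also called 0 of all genes after either strand. With 1 array against 2, this test rests on 1 degree of freedom. Unadjusted, it called 1 lower and 8 higher after 5p, and 3 lower after 3p. The calls after 5p, 0 lower and 3 higher here, moved most. Higher after 5p were 0 of the 38 with the authors' log2 values and with no filter on dim probes (limma, with 0 calls over all genes in both). Lower and higher were 2 and 7 after median scaling (14.0% and 6.46% of all genes), 1 and 6 after quantile normalization (8.5% and 5.11%), 4 and 18 after normexp (22.4% and 21.5%), 4 and 18 with a spread varying with intensity (24.4% and 21.6%), 2 and 17 with probes above background on all 4 arrays (20.4% and 17.6%), and 1 and 16 in a fit across genes (16.9% and 13.5%). After 3p, the median over the 38 genes was 0.030 after median scaling, with 8 called higher (19.2% of all genes). Above 0.5 were 19 genes after quantile normalization and with the authors' log2 values, and 7 after normexp. Called lower were 4 after quantile normalization (31.5% of all genes) and 3 with the authors' log2 values (30.2%). With no filter on dim probes, 4 were called lower (17.9%) and 11 higher (19.9%). Between the strands, lower and higher calls were 14 and 5 after median scaling (37.5% and 18.1% of all genes) and 14 and 17 after normexp (30.2% and 33.8%). They were 14 and 18 with a spread varying with intensity (33.2% and 33.0%), and 3 and 5 with no filter (13.7% and 13.9%). Quantile normalization and the authors' log2 values each gave 5 lower (28.0% and 25.5% of all genes). After 5p, 6 genes lay above 0.5 after normexp, and 2 lay below −0.5 with the brightest probe of each gene. With a limit of 1, 2 lay above and 0 below after 5p, and 0 below after 3p. After 3p, *HSPA5*, *DNAJB9*, *DNAJC3*, *ERO1B*, *EDEM1*, *EDEM3*, *SEC61A1* and *SEC24D* lay above 1. Shares of all genes by size are given only for 0.5 with the processing used here, so that these other counts by size lack a background. The cause of the shifts between settings was not tested. In all, 44 of the recomputed counts and medians moved, and the other 82 stayed near the values given. A count was near if within 1.5 times its value, and a median if within the spread between the mock arrays. After 3p with median scaling, 8 genes above 0.5 and 9 below −0.5 thus passed as near 12 and 6. No called gene among the 38 changed sign after either strand under median scaling, quantile normalization, normexp or the authors' log2 values, while 5 uncalled genes after 5p and 8 after 3p did.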

Other observations

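Further lists of the pathway held genes that moved after 1 strand or after both. Beside their counts after 3p stand 30.7% of all genes called higher and 30.4% lower, or 19.2% and 44.2% after median scaling. Of 16 genes that attach and trim N-glycans, 9 were called higher and 4 lower after 3p, with a median of 0.38, which median scaling took to 5, 5 and 0.0021. *DAD1*, a subunit of the oligosaccharyltransferase, rose by 1.28 (adjusted p = 0.00931). *PRKCSH*, the beta subunit of glucosidase II, fell by 1.51 (adjusted p = 0.0109). *STT3B*, the second catalytic subunit of the transferase, differed by −0.38 after 5p without a call.

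Of 19 other ERAD genes, 7 were called higher and 3 lower after 3p, with a median of 0.23, which median scaling turned to 4, 5 and −0.14. *MAN1B1*, a mannosidase, rose by 1.62 (adjusted p = 0.00798), and *RNF5*, a ubiquitin ligase, fell by 1.44 (adjusted p = 0.00859). *FAM8A1*, a partner of the SYVN1 ligase, rose after both strands, by 1.05 and 1.61 (adjusted p = 0.0475 and 0.00796). *HERPUD2* differed by −0.81 after 5p without a call. Of 22 other folding enzymes, 6 were called higher and 3 lower after 3p, with a median of 0.13, which median scaling turned to 2 higher, 9 lower and −0.24. *PPIC*, a cyclophilin, rose by 1.97 after 3p (adjusted p = 0.00762) and differed by −0.84 after 5p (adjusted p = 0.0503). *SERPINH1*, the collagen chaperone, fell after both strands, by 0.83 and 0.78 (adjusted p = 0.0494 and 0.0157). *FKBP11* rose by 0.99 after 5p (adjusted p = 0.0475), and *FKBP10* differed by −1.12 without a call.

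Of 10 other genes of the sensors and their processing, 3 were called higher and 3 lower after 3p (2 and 5 after median scaling). *CREB3L4* fell after both strands, by 0.57 and 0.67 (adjusted p = 0.0482 and 0.0102). *TMBIM6* rose by 0.88 and *TXNDC12* fell by 0.81 after 3p (adjusted p = 0.00974 and 0.0151). *ATF6B*, the relative of *ATF6*, differed by 1.12 after 5p and −0.77 after 3p, and neither was called. Among the translocation genes, *SRPRA*, of the receptor for the signal recognition particle, rose by 1.46 after 5p and 0.41 after 3p (adjusted p = 0.0475 and 0.0465), and *SEC11C*, a signal peptidase subunit, fell by 0.71 after 3p (adjusted p = 0.0200).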
